A study of Homo sapiens with 15 samples.

Results

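The genes of the cytosolic ribosomal proteins were examined, the protein components of the small (40S) and large (60S) subunits of the ribosome. Members were the genes of the deposited table whose symbol is RPL or RPS followed by a number, with or without A, X, L, L1 or AL, together with RPLP0, RPLP1, RPLP2 and RPSA. The names matched 85 genes, of which RPS10L was left out because the annotation gives it as a processed pseudogene. The remaining 84 of the 17272 genes in the table were 31 proteins of the 40S subunit, 46 of the 60S subunit and 7 paralogs, that is, second copies of a ribosomal protein gene. The name was the only criterion, and no measured value was used. RPL3L, the paralog of RPL3, has no row in the table.

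The study used LNCaP, a human line of prostate cancer cells that respond to androgen. In 10 libraries, whose labels also name DMSO, the cells were given 1 nM R1881, a synthetic androgen. In 5 libraries the cells were given 1 nM R1881 with 2 µM enzalutamide, an inhibitor of the androgen receptor. All cells had first spent 2 days in medium with charcoal-stripped serum and were harvested at 22 h. The R1881 libraries carry the numbers 51 to 55 and 71 to 75, and those with enzalutamide carry 81 to 85. The series 81 to 85 and the treatment therefore cannot be told apart. Comparing both R1881 series shows only how far series of the same treatment differ. The methods call the libraries biological replicates, but neither they nor the labels say whether they came from separate cultures. The p-values measure the spread between these libraries, which may be technical.

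Each ribosome holds a single copy of most of these proteins, and growing cells devote a large part of their messenger RNA to them. Their messenger RNAs are the main class of TOP messenger RNAs, which begin with a C followed by a run of pyrimidines, and whose translation is controlled by the kinase mTORC1 through the repressor LARP1. Excess ribosomal protein that does not enter a ribosome is degraded. Androgen receptor signalling drives growth of prostate cells, and several paralogs of the family differ from their parent genes in the tissues that use them.

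The start sites of members are shown first, since the sequence there defines TOP messenger RNAs. The RefSeq promoter table (GRCh38.p14) held 68 of the 84 members. A C at the annotated first base followed by at least 5 pyrimidines (CNNNNN with C or T at each N, on the transcribed strand) was present at a listed start of 46 members, 67.6% of those matched, against 3.83% of all 27305 genes in the promoter table. Beginning anywhere within 20 bases of a listed start, such a run was found for 59 members (86.8%) and for 38.6% of all genes. By class, the run at the first base was present in 18 of 24 proteins of the 40S subunit, in 27 of 38 of the 60S subunit and in 1 of 6 paralogs. Among 67 matched mitochondrial ribosomal proteins, 1 had it. Another 16 members had no entry, among them RPL5, RPL7, RPL8, RPL23, RPL23A, RPL30, RPL37, RPL39L, RPS2, RPS15A and RPS20.

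The windows below run from 10 bases before the start to 19 bases after it, and show members that the results turn on and the parents of paralogs beside their copies. Capitals mark runs of at least 6 pyrimidines beginning with C, cut at the window's edge, and the annotated first base is the 11th letter. Where several starts were listed, as for RPL10 and RPL26L1, the one with a run at the first base was taken, or otherwise the one listed first.
RPS3A (chr4:151099618-151099647, plus strand): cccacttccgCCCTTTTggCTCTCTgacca
RPS27 (chr1:153990752-153990781, plus strand): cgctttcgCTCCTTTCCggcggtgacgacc
RPS27L (chr15:63157458-63157487, minus strand): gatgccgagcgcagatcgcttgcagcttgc
RPL22 (chr1:6199576-6199605, minus strand): cgctcaCCTCCCTTTCTaactccgctgccg
RPL22L1 (chr3:170870176-170870205, minus strand): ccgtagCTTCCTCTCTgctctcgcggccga
RPL36A (chrX:101391001-101391030, plus strand): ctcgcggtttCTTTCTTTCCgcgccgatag
RPL36AL (chr14:49620607-49620636, minus strand): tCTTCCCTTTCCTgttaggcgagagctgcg
RPL26 (chr17:8383174-8383203, minus strand): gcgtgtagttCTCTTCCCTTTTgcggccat
RPL26L1 (chr5:172958719-172958748, plus strand): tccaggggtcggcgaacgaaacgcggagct
RPL10 (chrX:154398367-154398396, plus strand): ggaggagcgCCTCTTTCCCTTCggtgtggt
RPL10L (chr14:46651762-46651791, minus strand): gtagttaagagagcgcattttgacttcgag
RPL7L1 (chr6:42879606-42879635, plus strand): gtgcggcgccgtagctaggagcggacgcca
RPS6 (chr9:19380217-19380246, minus strand): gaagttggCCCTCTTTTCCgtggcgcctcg
RPLP0 (chr12:120201092-120201121, minus strand): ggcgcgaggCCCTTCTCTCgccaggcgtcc
RPS26 (chr12:56041908-56041937, plus strand): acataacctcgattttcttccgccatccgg

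RPL22L1 was the paralog with the run at its first base. In RPL36AL the run began before the annotated start and ended just past it, and the windows of RPL7L1, RPL10L, RPL26L1 and RPS27L held none. RPS26, which is not a paralog, also lacked the run at its annotated start. A match is a description of letters, and its absence says nothing of how a transcript is translated.

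Expression is given in CPM, the counts of a gene per 1000000 reads, as the authors scaled them. The columns of the table sum to between 1053406 and 1078567 with R1881 and to between 985580 and 1008992 with enzalutamide, so that a given share of reads corresponds to a lower CPM in the enzalutamide libraries. The whole reads could be read back from the steps between values and numbered 15830745 to 24316740 per R1881 library and 21188661 to 25416052 per enzalutamide library. Androgen response was checked with KLK3, KLK2, TMPRSS2 and FKBP5, all 4 of which were downregulated with enzalutamide. Their levels fell by 3.55 to 4.99 on the log2 scale. All 8 LNCaP markers had a row, and their summed level ranged from 7103 to 8274 CPM with R1881 and from 3601 to 3725 CPM with enzalutamide. Of these markers 5 were lower, KLK2 most (-4.87), and 3 were higher, FOLH1 most (1.04). Of 11 markers of other cells, PTPRC, CD3E, COL1A2, DCN, PECAM1, KRT5, TP63 and CHGA had no row, and COL1A1, VWF and KRT14 together stood at 8.10 to 12.02 CPM with R1881 and 10.3 to 15.9 CPM with enzalutamide, with COL1A1 (0.69) among the 2 that were higher and KRT14 (-1.35) lower. In bulk RNA, a change in the number of cells of a kind and a change in RNA per cell cannot be told apart.

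The members together took up a larger share of the counted reads in cells treated with the combination of R1881 and enzalutamide. Their share was 5.52% in the lowest, 5.64% in the median and 6.07% in the highest R1881 library. With enzalutamide it was 6.88%, 6.503%, 6.81%, 6.46% and 6.35% in libraries 81 to 85. Every enzalutamide library lay above every R1881 library, and the means were 5.72% ± 0.203 (SD, n = 10) and 6.60% ± 0.233 (SD, n = 5), a ratio of 1.15. The R1881 series differed from each other as well, with 5.52% to 5.61% in libraries 51 to 55 and 5.66% to 6.07% in libraries 71 to 75. The difference between the means of these series was 0.306 percentage points, and the enzalutamide mean lay 1.03 points above the former and 0.727 points above the latter. Both subunits had a larger share, since proteins of the 40S subunit went from 2.07% ± 0.0662 (SD, n = 10) to 2.41% ± 0.0784 (SD, n = 5) and those of the 60S subunit from 3.54% ± 0.141 to 4.08% ± 0.161. The 76 mitochondrial ribosomal proteins, which build the separate ribosome of mitochondria, held 0.406% ± 0.00671 (SD, n = 10) and 0.397% ± 0.00605 (SD, n = 5) of reads, with overlapping values.

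**Figure D1:**
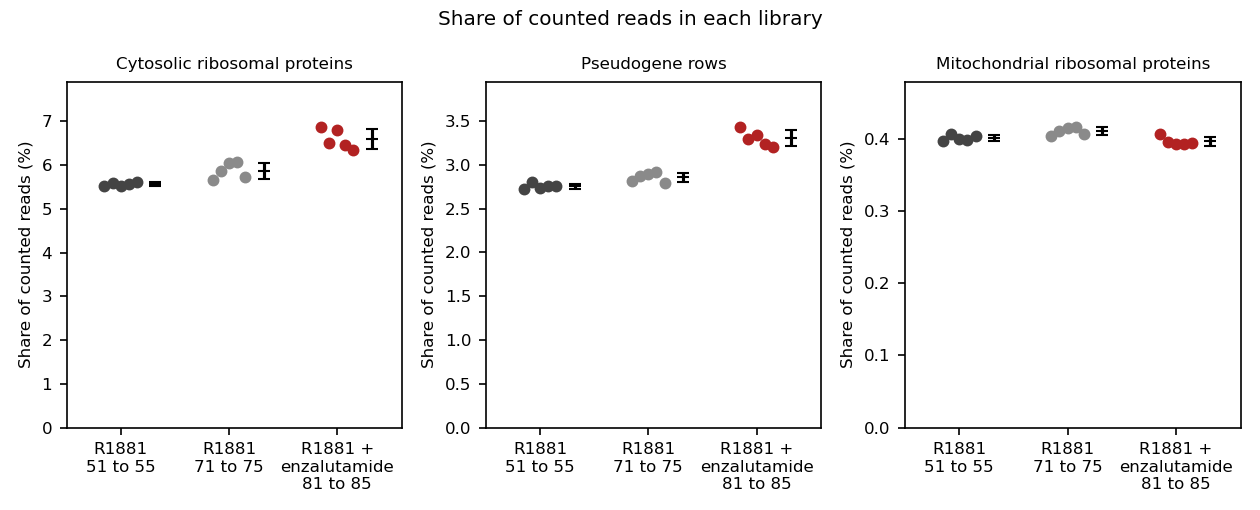
Share of counted reads in percent for the 84 cytosolic ribosomal proteins, for pseudogene rows named after them and for 76 mitochondrial ribosomal proteins; each point is a library, in order of library number, and bars give the mean and SD of 5 libraries. The 5 enzalutamide libraries (6.35% to 6.88%) lie above all R1881 libraries (5.52% to 6.07%) for the cytosolic proteins, and the mitochondrial proteins overlap.

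Gene by gene, small increases prevailed. All 84 members were among the 17046 genes tested with limma. With Benjamini-Hochberg adjustment over all of them, 43 members were higher with enzalutamide and 4 were lower, while 37 did not pass the threshold of 0.05. In percent, 51.2% of members were higher, where 29.8% of all genes tested were, and 4.76% were lower, where 32.7% of all genes were. The background at a like level of expression was further apart, since among the 2418 genes with a mean of at least 100 CPM, 24.2% were higher and 51.0% lower, against 41 and 3 of the 76 members of that level. The median log2 fold change was 0.10 over the members and -0.01 over all genes tested. No member changed 2-fold. The largest increase was 23.8% and the largest decrease 22.1%. Values of 16 members (19.05%) did not overlap between the treatments and were higher with enzalutamide, and values of 2 (2.38%) were lower without overlap. The same held for 17.1% and 20.1% of all genes tested, so that the share of members separated upwards was near the background of 17.1%.

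The scaling set how many members passed the test. With each library set to a total of 1000000, 62 members were higher and 2 lower, and the median of members was 0.20 beside 0.07 for all genes. In that scaling 38.95% of all genes were higher and 25.2% lower. The median of members exceeded that of all genes by 0.11 in the scaling as deposited and by 0.12 with equal totals.

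**Figure D2:**
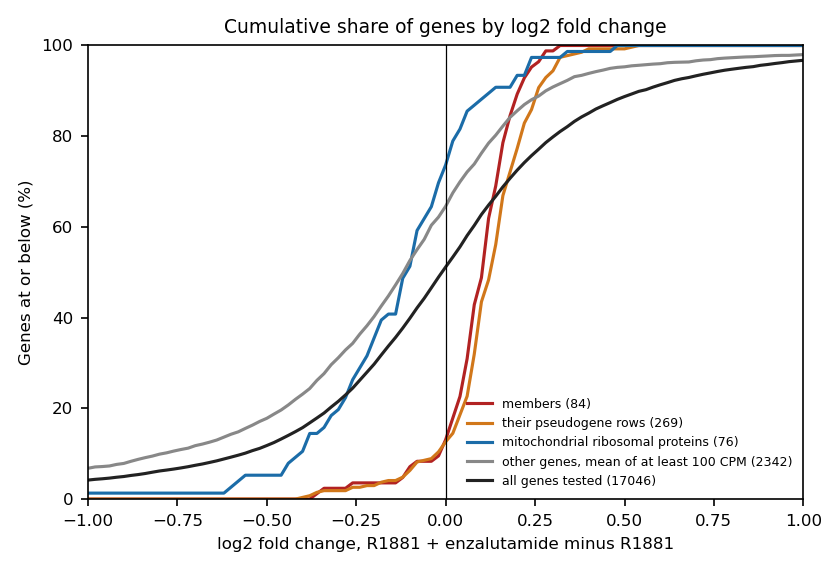
Cumulative percent of genes (y axis) at or below each log2 fold change (x axis, R1881 + enzalutamide minus R1881) for members, their pseudogene rows, mitochondrial ribosomal proteins, other genes of at least 100 CPM and all genes tested; values beyond 1 in size are not drawn. The curve of the members rises steeply around its median of 0.10, and that of mitochondrial ribosomal proteins around -0.11. The median of other genes of at least 100 CPM is -0.12.

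Proteins of the 40S subunit, which decodes the messenger RNA, were higher in 16 of 31 cases and lower in 1, with a median log2 fold change of 0.10. Over all genes tested, 29.8% were higher and 32.7% lower. The largest increase was that of RPS3A (chr4:151099624-151104642, GRCh38), a protein on the solvent side of the small subunit. It stood at 1133, 1218 and 1266 CPM in the lowest, median and highest R1881 library and at 1564, 1550, 1367, 1474 and 1479 CPM in enzalutamide libraries 81 to 85. The groups did not overlap, and the log2 fold change was 0.31 ± 0.04 (SE, limma adjusted p = 3.37e-07). RPS27 (chr1:153990762-153992155), a zinc finger protein of the 40S subunit, ranged from 122 to 152 CPM with a median of 133 CPM under R1881. With enzalutamide it was 174, 166, 161, 156 and 166 CPM, again without overlap, and its log2 fold change was 0.27 ± 0.05 (adjusted p = 8.03e-05). RPS6, the substrate of the S6 kinases, measured 1969 to 2218 CPM (median 2105) with R1881 and 2448, 2494, 2296, 2293 and 2418 CPM with enzalutamide. Its log2 fold change was 0.19 ± 0.03 (adjusted p = 5.65e-05). RPSA, which joins the 40S subunit late in its assembly and is also known as a laminin receptor precursor, rose from a median of 752 to 799 CPM (log2 fold change 0.12 ± 0.03, adjusted p = 0.00101). RPS27A, which is made as a fusion with ubiquitin, had medians of 551 and 567 CPM with overlapping values and did not pass the test as scaled here (0.05 ± 0.04, adjusted p = 0.268). With equal library totals it did (0.14, adjusted p = 0.000793).

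RPS26 was the single protein of the 40S subunit that was lower. It lies near the channel through which messenger RNA leaves the subunit. Its level as counted was low. It was 6.12, 7.56 and 8.70 CPM in the lowest, median and highest R1881 library. With enzalutamide it was 6.96, 5.35, 5.81, 6.94 and 5.52 CPM. The values overlapped, and the log2 fold change was -0.27 ± 0.09 (adjusted p = 0.0104). With equal library totals it was -0.18 and missed the threshold (adjusted p = 0.0718).

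Of the 46 proteins of the 60S subunit, which forms the peptide bond, 26 were higher and 0 lower by limma, with a median log2 fold change of 0.11. At an unadjusted p under 0.05, 0 were lower as well, and edgeR and DESeq2 on the recovered reads gave 0 under either criterion. The shares over all genes tested were 29.8% higher and 32.7% lower by limma with adjustment. RPL5 (chr1:92832013-92841924), which binds 5S ribosomal RNA together with RPL11 and with it can inhibit MDM2, had 771, 814 and 860 CPM in the lowest, median and highest R1881 library. With enzalutamide it had 1008, 1027, 915, 965 and 979 CPM, all above the R1881 range. The log2 fold change was 0.265 ± 0.03 (adjusted p = 4.20e-07). RPL11 ranged from 473 to 528 CPM with R1881 and was 553, 566, 527, 531 and 550 CPM with enzalutamide. The lowest enzalutamide library fell just within the R1881 range, and the log2 fold change was 0.12 ± 0.03 (adjusted p = 0.000983). RPL21 (chr13:27251362-27256691) was measured at 17.2 to 22.8 CPM (median 19.99) and, with enzalutamide, at 27.7, 25.55, 20.3, 22.8 and 22.8 CPM. Its log2 fold change was 0.25 ± 0.08 (adjusted p = 0.00741). RPL3, which lies beside the peptidyl transferase centre, rose from a median of 2419 to 2771 CPM with overlapping values (0.16 ± 0.04, adjusted p = 0.00435), and against libraries 71 to 75 alone it missed the threshold (adjusted p = 0.0754).

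The acidic P-stalk recruits elongation factors to the large subunit and consists of RPLP0, RPLP1 and RPLP2. RPLP0 had 2916, 3158 and 3400 CPM in the lowest, median and highest R1881 library and 3433, 3328, 3629, 3332 and 3148 CPM with enzalutamide. Its log2 fold change was 0.11 ± 0.04 (adjusted p = 0.0170), and without enzalutamide replicate 2 (library 83) it missed the threshold (adjusted p = 0.0705), as it did against libraries 71 to 75 alone (0.060, adjusted p = 0.209). RPLP1 spanned 389 to 706 CPM and RPLP2 254 to 397 CPM within the R1881 group, and neither passed the test (adjusted p = 0.625 and 0.964). For both, the R1881 group alone varied by more than the difference between the treatments.

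**Figure D3:**
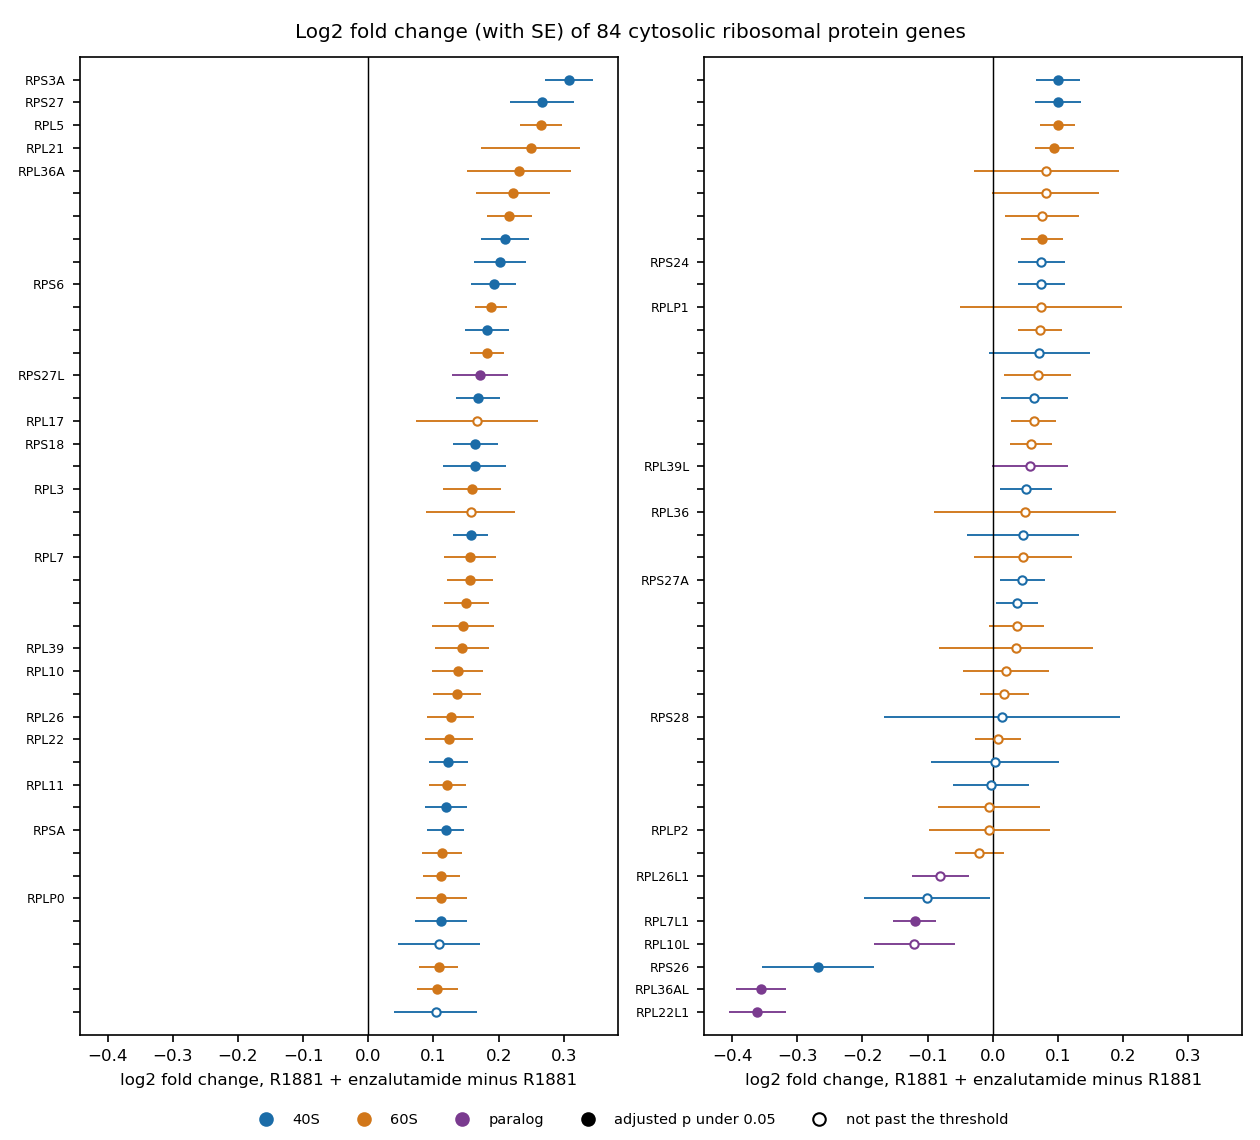
Log2 fold change with its standard error (x axis, R1881 + enzalutamide minus R1881) of each of the 84 members (y axis), in order of size, with names for the members described in the text, coloured by class, with filled points for an adjusted p under 0.05. Most members lie between 0 and 0.3, and RPL22L1 and RPL36AL lie lowest at about -0.36.

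Several paralogs were lower while their parents were higher. All 8 parents (RPL3, RPL7, RPL10, RPL22, RPL26, RPL36A, RPL39 and RPS27) were higher with enzalutamide, with log2 fold changes from 0.12 to 0.27. Against libraries 71 to 75 alone 6 of them were, without RPL3 and RPL10 (0.086, limma adjusted p = 0.0597), and RPL36A turned to -0.21 when the reads of its pseudogene rows were added. Of the 7 paralogs, RPL22L1, RPL36AL and RPL7L1 were lower and RPS27L was higher. Over all genes tested, 29.8% were higher and 32.7% lower. RPL22L1 (chr3:170864875-170870208) encodes a copy of RPL22 that can take its place in the ribosome. It had 335, 377 and 396 CPM in the lowest, median and highest R1881 library and 318, 283, 263, 286 and 300 CPM with enzalutamide, all below the R1881 range (log2 fold change -0.36 ± 0.04, adjusted p = 3.64e-07). RPL22 (chr1:6185020-6209389) had 360 to 417 CPM (median 382) with R1881 and 422, 425, 392, 417 and 432 CPM with enzalutamide, a log2 fold change of 0.12 ± 0.04 (adjusted p = 0.00585). Thus the copy stood near its parent under R1881, at 0.968 times the parent's CPM in the median, and at 0.686 times with enzalutamide.

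RPL36AL (chr14:49618530-49620626) is a copy of the X-linked gene RPL36A. It ranged from 199 to 226 CPM (median 208) with R1881 and was 167, 175, 150, 160 and 168 CPM with enzalutamide. The values did not overlap and the log2 fold change was -0.36 ± 0.04 (adjusted p = 7.30e-08). RPL36A itself (chrX:101390824-101396155) was at 6.12 to 8.64 CPM with R1881 and at 10.4, 8.15, 8.61, 9.72 and 8.49 CPM with enzalutamide (0.23 ± 0.08, adjusted p = 0.0163). The call of RPL36A was lost without enzalutamide replicate 3 (library 81) or replicate 5 (library 84), with adjusted p = 0.0679 and 0.0511. RPL7L1, a relative of RPL7 with a place in the assembly of the large subunit, had 350 to 396 CPM (median 387) with R1881 and 344, 353, 339, 355 and 364 CPM with enzalutamide. Its log2 fold change was -0.12 ± 0.03 (adjusted p = 0.00368), and it passed the test neither with equal library totals (-0.03, adjusted p = 0.455) nor against libraries 71 to 75 alone (-0.09, adjusted p = 0.0718). RPS27L, a target of p53, rose from a median of 112 to 130 CPM with overlapping values (0.17 ± 0.04, adjusted p = 0.00155). RPL10L, RPL26L1 and RPL39L did not pass the test, with log2 fold changes of -0.12, -0.08 and 0.06, and with equal library totals that of RPL26L1 changed sign (0.012) and that of RPL39L passed (0.15, adjusted p = 0.0247).

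A ratio of paralog to parent within a library depends on the scaling of libraries only through the 0.5 CPM added to both. Testing each pair by exact permutation (3003 ways to regroup the libraries, two-sided), the log2 ratio was lower with enzalutamide in 6 of 7 pairs after adjustment over these pairs. The difference was -0.59 for RPL36AL over RPL36A, -0.49 for RPL22L1 over RPL22 and -0.28 for RPL7L1 over RPL7, with no overlap between the treatments and an exact p = 0.000333 (adjusted exact p = 0.000777), the smallest these regroupings can give. It was -0.26 for RPL10L over RPL10 (adjusted exact p = 0.0042), -0.21 for RPL26L1 over RPL26 (adjusted exact p = 0.00233) and -0.09 for RPL39L over RPL39 (adjusted exact p = 0.0187). RPS27L and RPS27 both rose, and their ratio differed by -0.10 (adjusted exact p = 0.1). The difference of RPL39L over RPL39 missed the threshold without enzalutamide replicate 5 (adjusted exact p = 0.0828). When the reads of pseudogene rows were added to both genes of each pair, the difference for RPL36AL over RPL36A was -0.14 (adjusted exact p = 0.00233).

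**Figure D4:**
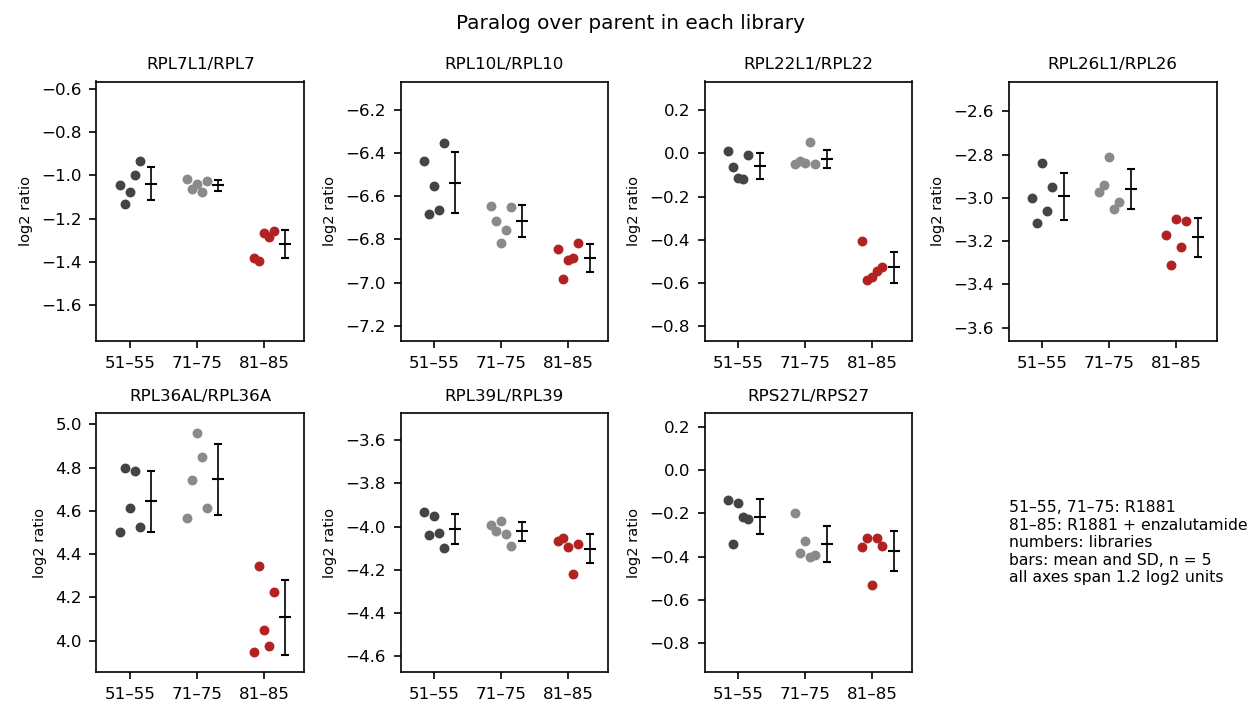
Log2 ratio of CPM + 0.5 of a paralog to its parent (y axis) in R1881 libraries 51 to 55 and 71 to 75 and in R1881 + enzalutamide libraries 81 to 85 (x axis), in order of library number, with mean and SD of 5 libraries. The 5 enzalutamide libraries lie below all R1881 libraries for RPL7L1, RPL22L1 and RPL36AL, and they overlap them for RPS27L.

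Levels differed widely between members. Per kilobase of the canonical transcript, the median member stood at 670 CPM. The treatment of reads with several matches is not given, so this scale may understate members whose reads also match other genes. RPS18 (3661 CPM per kilobase), RPLP0 (2901) and RPS24 (2603) were highest, and RPS26 (6.15), RPL17 (10.5) and RPL36A (10.7) lowest. For RPL7L1, RPL14, RPL27A, RPL28, RPL37 and RPS27L the canonical transcript is longer than 4000 bases, which lowers their level per kilobase. RPS27L (117 CPM), RPL28 (314.5 CPM) and RPL7L1 (371 CPM) were also below the member median of 604 CPM before division by length. RPL14, RPL27A and RPL37 were above that median. RPS18, which helps to join both subunits, rose from a median of 1932 to 2143 CPM (0.16 ± 0.03, adjusted p = 0.000265) and RPS24 had medians of 1370 and 1477 CPM with overlapping values (0.07 ± 0.04, adjusted p = 0.0819). RPS24 passed the test without enzalutamide replicate 2 (library 83, limma adjusted p = 0.0093), with equal library totals (adjusted p = 0.000222) and with edgeR (adjusted p = 0.00505). RPL17, at the exit of the peptide tunnel, had medians of 6.14 and 6.61 CPM (0.17 ± 0.09, adjusted p = 0.129), and passed the test without R1881 replicate 6 (library 73, 0.21, adjusted p = 0.0371) and with equal library totals (0.25, adjusted p = 0.0252). The order of members was nearly the same under both treatments (Spearman's rho 0.997 over 84 genes measured in the same libraries, a description).

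Some members overlap other annotated genes. RPL17 (chr18:49488453-49492508), RPL36A and RPS10 (chr6:34417454-34426069) overlap the readthrough genes RPL17-C18orf32, RPL36A-HNRNPH2 and RPS10-NUDT3 on the same strand in GENCODE v44, and no row carries the name of any of these. Of all members, 13 overlap an annotated gene on their own strand and 26 more one on the opposite strand. The sources used here do not give whether strand was used in counting, and the part of these overlaps in the levels was not tested.

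Reads of 50 bases can also match the many processed copies of ribosomal protein genes. The table holds 269 rows whose name is a member's symbol followed by P and a number, for 63 members. They took 2.80% ± 0.0660 (SD, n = 10) of the counted reads with R1881 and 3.30% ± 0.0904 (SD, n = 5) with enzalutamide, without overlap. Of these 269 rows 93 (34.6%) were higher, where 29.8% of all genes tested were, and 7 were lower, where 32.7% were. The share of rows called higher was therefore near the background, and few rows were lower. Their median log2 fold change was 0.13. The highest was RPS3AP49 (0.54, adjusted p = 0.00151) and the lowest RPL36AP41 (-0.42, adjusted p = 0.000419), named for copies of the member with the largest increase and of RPL36A. For 10 members the copies held more reads than the member itself, among them RPL36A (11.9 times), RPL7 (2.50 times), RPL9 (2.21 times) and RPS3A (1.94 times), chosen for display after their values were seen. With the copies' reads added, 42 members were higher and 5 lower, where 29.8% of all genes tested were higher and 32.7% lower. RPS3A then kept a log2 fold change of 0.31, and RPL36A turned from 0.23 to -0.21 (limma adjusted p = 0.000207). The direction of RPL36A therefore differed with and without the reads of rows named after it. Among these rows RPL36AP21 stood at -0.37 and RPL36AP13 at 0.13, beside -0.36 for the paralog RPL36AL. Whether the added reads came from RPL36A, from RPL36AL or from the copies was not tested.

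Members with GC-rich transcripts stood apart in several libraries. The 21 members with a GC content of at least 53.2% were, on average, 0.37 higher on the log2 scale than the R1881 mean in R1881 replicate 6 (library 73), 0.24 higher in R1881 replicate 5 (library 74) and 0.27 higher in enzalutamide replicate 2 (library 83). In the other R1881 libraries they were between -0.19 and -0.01, and in enzalutamide libraries 81, 82, 84 and 85 they were at 0.15, -0.14, 0.04 and -0.06. The other 63 members stayed between -0.06 and 0.05 in all R1881 libraries and between 0.06 and 0.17 in the enzalutamide libraries. RPS28, RPL36 and RPLP1 had the largest spread within the R1881 group, and of these RPLP1, with a GC content of 47.4%, is not among the GC-rich members. RPLP1 was nevertheless highest in the same libraries, at 706 CPM in library 73, 604 CPM in library 74 and 600 CPM in library 83. RPS28, at 94.6 to 251 CPM with R1881 and 160, 96.2, 193, 151 and 125 CPM with enzalutamide, had a log2 fold change of 0.01 ± 0.18 (adjusted p = 0.951). RPL36, at 218 to 447 CPM with R1881 and 325, 215, 372, 310 and 270 CPM with enzalutamide, had one of 0.05 ± 0.14 (adjusted p = 0.775). The median standard error was 0.08 for GC-rich members and 0.04 for the others. The median log2 fold change was 0.05 for GC-rich members and 0.12 for the others. Of the 21 GC-rich members 2 were higher, and of the 63 others 41 were, where 29.8% of all genes tested were higher. With libraries 73, 74 and 83 left out, a choice made after the data were seen, 52 members were higher and 4 lower. The median log2 fold change of members was then 0.11, and 30.8% of all genes tested were higher and 34.1% lower. Against R1881 libraries 51 to 55 alone, 57 members were higher, and against 71 to 75 alone, 33, with medians of 0.14 and 0.07. In the same comparisons, 29.4% and 28.0% of all genes tested were higher.

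**Figure D5:**
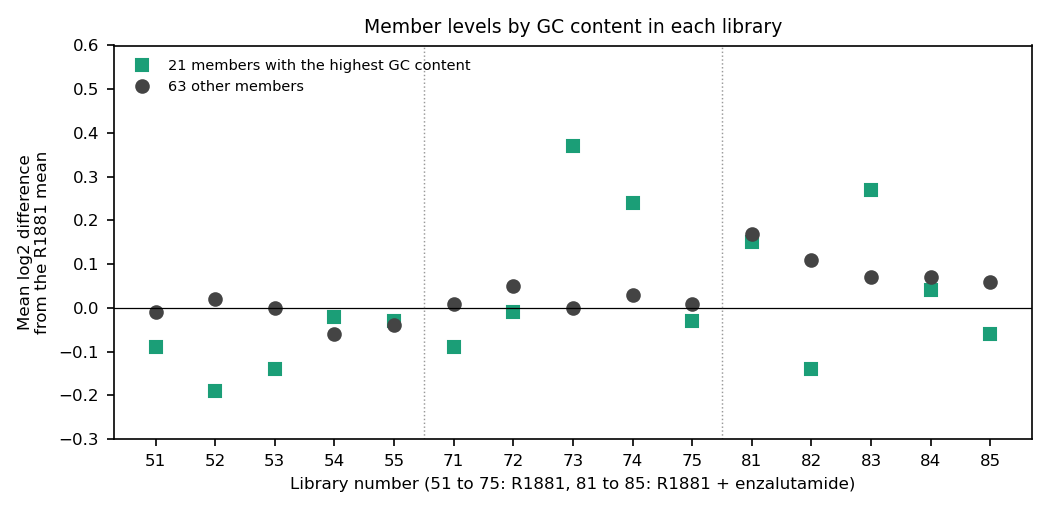
Mean log2 difference from the R1881 mean (y axis) of the 21 members with the highest GC content and of the 63 other members in each library (x axis). The GC-rich members stand high in libraries 73, 74 and 83, and the other members lie between 0.06 and 0.17 in all 5 enzalutamide libraries.

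Among ribosomal proteins whose symbols do not follow the pattern, GNB2L1 (RACK1), a scaffold on the head of the 40S subunit, rose from a median of 1417 to 1578 CPM (0.15 ± 0.03, adjusted p = 0.00101). FAU, made as a fusion with a relative of ubiquitin, had a log2 fold change of -0.015 ± 0.11 and did not pass the test (adjusted p = 0.914). The mitochondrial ribosomal proteins were lower in 36 (47.4%) and higher in 6 (7.9%) of 76 cases, with a median of -0.11, between MRPS18A (-1.15) and MRPS27 (0.47). Of all genes tested, 32.7% were lower and 29.8% higher. Among genes with at least 100 CPM, 51.0% were lower and 24.2% higher, and their median was also -0.11. With equal library totals, 23 of the 76 mitochondrial ribosomal proteins were lower and 18 higher.

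Lists of genes that work with the cytosolic ribosome held genes higher and genes lower with enzalutamide, as did all genes tested (29.8% higher and 32.7% lower, and 24.2% and 51.0% of genes with at least 100 CPM), and nothing is read from their counts. Of 7 elongation factors measured, 3 were higher and 1 lower, and EEF2, the translocase, rose from a median of 1778 to 2352 CPM (0.36 ± 0.10, adjusted p = 0.00384), a call that was lost against libraries 71 to 75 alone (adjusted p = 0.0637). EIF5A, which relieves stalled ribosomes, fell by 0.35 on the log2 scale (adjusted p = 3.55e-07). Of 29 initiation factors, 10 were higher and 14 lower, from EIF2S1 (-0.51), a subunit of the factor that delivers the initiator transfer RNA, to the helicase EIF4A2 (0.53). Of 20 genes of the mTORC1 pathway and TOP messenger RNA control, 8 were higher and 10 lower. MTOR, the kinase itself, went from a median of 144 to 72.2 CPM (-1.01 ± 0.04, adjusted p = 7.97e-16), and SESN1, an inhibitor of the pathway that is also a target of p53, from 215 to 543 CPM (1.34 ± 0.04, adjusted p = 2.26e-17).

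Host transcripts of small nucleolar RNAs, several of which are TOP messenger RNAs themselves, were higher in 9 and lower in 4 of 16 cases, between SNHG15 (-0.27) and SNHG3 (0.62). Of 10 chaperones of ribosomal proteins, 2 were higher and 5 lower, between GRWD1 (-0.54), which escorts RPL3, and PDCD2 (0.26), which escorts RPS2. Of 12 genes of ribosome recycling, hibernation and rescue, 3 were higher and 6 lower, with PELO, which splits stalled ribosomes, at -0.42. LTN1, the ubiquitin ligase that marks nascent chains on stalled 60S subunits, had the largest change, from a median of 61.5 to 297 CPM (2.20 ± 0.07, adjusted p = 1.09e-16).

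By start site, members with the run of pyrimidines at the first base and members without it had similar median changes. The median log2 fold change was 0.10 over 46 members with it, of which 26 were higher and 1 lower. It was 0.09 over 22 members without it, of which 9 were higher and 3 lower. Of all genes tested, 29.8% were higher and 32.7% lower. No test was made of the difference between members with and without the run. The group without it held the paralogs RPL7L1, RPL10L, RPL26L1, RPL36AL and RPS27L, so start site and paralog class are not separated here. The only member with the run that was lower was RPL22L1.

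Among the 37 members that did not pass the test were RPL8, RPL10L, RPL13, RPL17, RPL18, RPL19, RPL23A, RPL26L1, RPL27, RPL28, RPL29, RPL32, RPL34, RPL35, RPL35A, RPL36, RPL37A, RPL38, RPL39L, RPL41, RPLP1, RPLP2, RPS2, RPS4X, RPS9, RPS10, RPS15, RPS16, RPS19, RPS21, RPS24, RPS27A and RPS28. Among the 43 that rose were RPL3, RPL4, RPL5, RPL6, RPL7, RPL7A, RPL9, RPL10, RPL10A, RPL11, RPL12, RPL13A, RPL14, RPL15, RPL21, RPL22, RPL23, RPL24, RPL26, RPL27A, RPL30, RPL31, RPL36A, RPL37, RPL39, RPLP0, RPS3, RPS3A, RPS6, RPS7, RPS12, RPS13, RPS14, RPS15A, RPS18, RPS20, RPS23, RPS25, RPS27, RPS27L, RPS29 and RPSA.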

How the data were processed

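Polyadenylated RNA of LNCaP cells was sequenced with a stranded kit (single-end, 50 bases). Per the labels and methods, the authors used STAR, the GRCh38 genome and featureCounts for mapping and counting. The deposited signal per gene is given as CPM in the methods, and its columns do not sum to 1000000. The sources used here do not give the gene annotation, the treatment of reads with several matches, the use of strand or the scaling. Labels give 10 R1881 and 5 enzalutamide libraries, and the methods give these numbers the other way round. Whole reads were recovered from all values (100%, tolerance 0.01 reads).

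Differences were tested with limma 3.58.1 in R 4.3.3 on log2(CPM + 0.5), with a mean-variance trend, for 17046 genes of a mean of at least 0.5 CPM, with Benjamini-Hochberg adjustment and a threshold of 0.05. Fold changes on this scale understate those of low genes. edgeR 4.0.16 (quasi-likelihood) and DESeq2 1.42.0 on recovered reads were alternatives. In simulated libraries of this comparison over 17046 genes, 86 of 100 genes changed 1.5-fold, 95 of 100 changed 2-fold and 9 of 16846 unchanged genes were called. The simulation held no difference between library series, and no member changed as much as 1.5-fold. These rates therefore do not carry over to the calls of members. Positions, lengths and GC content are from GENCODE v44, matched for 86.0% of rows, and start sites from RefSeq (GRCh38.p14). Members, lists and tests were chosen with earlier results of these data known. Named genes were the 5 members highest and lowest by fold change, members lower, the 3 highest and lowest per kilobase, the 3 most variable with R1881, the P-stalk, RPL5, RPL11, RPSA, RPS27A, RPS6, paralogs and parents, and the extremes of each list. Some of these genes are not reported here. Alternatives covered scaling, pseudocount (0.1 and 1), filter (none and 5 CPM), a replicate block, each R1881 series, GC and length trends (spline with 5 degrees of freedom) and each library left out. The leaving out of libraries 73, 74 and 83 together and the adding of copies' reads were chosen after the data were seen. The number of libraries sets the precision, together with counting error for members under 10 CPM.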

Additional observations from a re-analysis of the deposited data

Results flagged for a closer look

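In 78 groups of values examined (each treatment for the member share, the named members and the paralog ratios), 4 had a library set apart from the rest of its treatment by Dixon's criterion, where chance gives about 1 group in 20. RPL10L had 10.3 CPM in R1881 replicate 4, with the next library at 9.04 CPM. RPL17 had 8.64 CPM in enzalutamide replicate 3, with the next at 6.70 CPM. The log2 ratio of RPL39L to RPL39 was -4.22 in enzalutamide replicate 5, beside -4.09 in the next library. The log2 ratio of RPS27L to RPS27 was -0.53 in enzalutamide replicate 2, beside -0.35. The causes were not tested.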

How the results depend on the processing

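Across the alternatives the members higher numbered 33 to 62, while 28.0% to 40.6% of all genes tested were higher. Each library left out in turn gave 38 to 47 members higher and 4 lower. The median log2 fold change was then 0.08 to 0.11 and the difference in share 0.8095 to 0.943 percentage points. Members lower went from 4 to 2 with equal library totals and with scaling on reads of genes that are not members. The median of members was 0.20 and 0.21 in these scalings, 0.14 with edgeR and 0.14 against R1881 libraries 51 to 55 alone. Scaling on reads of other genes moved the median of all genes by 0.0994, so that the median of members stood 0.12 above it. With pseudogene rows added, the difference in share was 1.38 percentage points. The difference of RPL39L over RPL39 missed the threshold against libraries 51 to 55 (-0.091) and without libraries 73, 74 and 83 (-0.085), and ranged from -0.098 to -0.057 with each library left out. That of RPS27L over RPS27 passed it against libraries 51 to 55 (-0.16).

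Sign changes among named genes were few. With equal totals and with scaling on other genes, RPL26L1 went to 0.012 and 0.025 and RPLP2 to 0.088 and 0.10. RPLP2, whose value was -0.01, also turned to 0.0093 with TMM, 0.0043 with median-ratio factors, 0.034 with edgeR, 0.0040 with DESeq2, 0.10 against libraries 51 to 55, 0.031 with the GC trend removed, 0.028 with the length trend removed and 0.024 without libraries 73, 74 and 83. Against libraries 71 to 75, RPL36 turned to -0.097, RPLP1 to -0.055 and RPS28 to -0.20. With each library left out in turn, RPL36 ranged from -0.036 to 0.16, RPLP1 from -0.0011 to 0.18, RPLP2 from -0.065 to 0.065 and RPS28 from -0.098 to 0.15. None of these passed the test in any of these settings. RPL36A turned to -0.21 with the reads of pseudogene rows added and then passed it. The causes were not tested.

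The replicate numbers in the labels do not pair the libraries, with correlations of deviations between -0.0678 and 0.0739 for libraries of the same number. By the last digit of the library number they ran from -0.417 to 0.668. With a replicate block 40 members were higher and 4 lower, and paralog differences kept their sign, from -0.56 for RPL36AL over RPL36A to -0.05 for RPL39L over RPL39, with too few pairs for an exact test to pass. Blocks by the last digit of the library number gave 43 higher and 4 lower. Depth limits RPS26, RPL17, RPL36A and RPL10L, all under 10 CPM.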
